A study of Mus musculus with 3 samples.

Results

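A set of 10 genes of the adipogenic program was followed through every cell class of regenerating mouse muscle. They were the regulators Pparg, Cebpa, Cebpb, Cebpd and Zfp423, the lipid-handling genes Fabp4, Plin1 and Plin2, the adipokine gene Adipoq and the apolipoprotein gene Apod. They were chosen by symbol, and all 10 were found among the 32285 genes of the files and had UMIs in each library. The samples were suspensions of digested tibialis anterior muscle from C57BL/6J mice, taken 4 days after injury with barium chloride (BaCl2). The 3 groups were young mice given PBS (young PBS), old mice given PBS (old PBS) and old mice given recombinant Meteorin-like protein (old rMETRNL), so that the injury was common to all of them and no uninjured muscle was included. The labels give ages only as young and old. Each group was 1 library that pooled the muscles of several mice. There was therefore no replicate, and the groups could not be tested against each other. Intervals are exact 95% intervals and cover counting error only.

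Fibro/adipogenic progenitors (FAPs) are the mesenchymal cells of skeletal muscle that can become either matrix-producing fibroblasts or adipocytes. In the textbook course of adipogenesis, Cebpb and Cebpd act early and lead to Pparg and Cebpa, which sustain each other and switch on adipocyte genes such as Fabp4, Plin1 and Adipoq. Several of these genes also work outside fat. Pparg and Fabp4 are used by macrophages and by capillary endothelium, Cebpa and Cebpb are regulators of myeloid cells, and Plin2 coats lipid droplets in many cell types. Fat within muscle is known to accumulate with age.

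The 3 libraries held 12168 to 14012 cell barcodes and from 179295668 to 228966697 UMIs (counted molecules). After filtering, 31592 cells remained and their clusters were named from marker genes where these allowed, with 1346 to 1644 FAP-like cells, 5204 to 6114 macrophage/monocyte-like cells and 650 to 970 endothelial-like cells per library. All 10 FAP markers were more than 2-fold higher in FAP-like cells than in the other classes. Pericyte/smooth muscle-like and Schwann/glial-like cells were under 100 in at least 1 library, and their values are given only where they matter. Across libraries 188 barcode sequences occurred in more than 1 library. On GRCm38 (GENCODE M21) Pparg lies at chr6:115360951-115490399, Cebpa at chr7:35119293-35121928, Cebpb at chr2:167688915-167690418 and Cebpd at chr16:15887286-15891031, all on the plus strand, as is Adipoq at chr16:23146536-23158028. On the minus strand are Zfp423 at chr8:87661810-87959595, Fabp4 at chr3:10204088-10208576, Plin1 at chr7:79720218-79732903, Plin2 at chr4:86648386-86670060 and Apod at chr16:31296192-31314808. Levels are UMIs summed over the cells of a class and given as CPM, the share of the class's UMIs in parts per 1000000. Values are given in the order young PBS, old PBS, old rMETRNL unless stated.

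Pparg, Cebpa and Cebpb had their highest levels outside FAP-like cells. Pparg, the master transcription factor of adipocytes, was at 32.0, 34.5 and 25.2 CPM in endothelial-like cells and at 28.9, 27.7 and 31.6 CPM in macrophage/monocyte-like cells. It was lower in the FAP-like class, at 5.77, 3.99 and 5.19 CPM, from 259, 120 and 223 UMIs. The endothelial and macrophage ranges overlapped, those of dendritic-like cells (8.42 to 14.2 CPM) lay between them and FAP-like cells, and tenocyte-like cells were lowest by their mean, at 1.45 to 2.47 CPM, a range that overlapped that of T/NK-like cells (2.42 to 4.01 CPM). Macrophage/monocyte-like cells, the largest class, held from 70.7% to 71.3% of all Pparg UMIs in kept cells, and FAP-like cells held 6.87%, 3.53% and 4.91%.

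Cebpa, the partner of Pparg in mature adipocytes and a factor of myeloid cells, was at 141.0, 153.7 and 145.2 CPM in macrophage/monocyte-like cells. Dendritic-like cells followed at 26.6 to 31.0 CPM and FAP-like cells at 15.9, 12.8 and 15.2 CPM, and these 3 ranges did not overlap. The tenocyte-like, endothelial-like, myocyte-like and T/NK-like classes lay between 4.85 and 12.5 CPM. Macrophage/monocyte-like cells held 83.4% to 84.8% of the Cebpa UMIs. Cebpb, an early factor that inflammation also induces, was at 904, 987 and 825 CPM in macrophage/monocyte-like cells. The FAP-like class had 448, 473 and 472 CPM of it, a range that overlapped tenocyte-like cells (317 to 449 CPM). The few pericyte/smooth muscle-like cells had 1481, 1868 and 1409 CPM of Cebpb.

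Cebpd and Zfp423 were high in the stromal and vascular classes. Cebpd, the early partner of Cebpb, was at 724, 985 and 837 CPM in FAP-like cells, 652 to 964 CPM in tenocyte-like cells and 544 to 729 CPM in endothelial-like cells, with overlapping ranges. It was at 44.4 to 53.6 CPM in macrophage/monocyte-like cells, and FAP-like cells held 64.4% to 68.5% of its UMIs. Zfp423, a zinc finger factor that marks cells committed to the fat lineage and also occurs in vascular cells, was at 12.8, 10.03 and 10.8 CPM in endothelial-like cells. It was at 7.53, 9.66 and 7.53 CPM in FAP-like cells and at 7.71 to 10.7 CPM in tenocyte-like cells. The tenocyte range overlapped both others, while the endothelial range lay above that of FAP-like cells. Within the endothelium, cells led by Selp, Lrg1 and Ackr1, genes of venules, had 24, 27.9 and 24.6 CPM of Zfp423. Cells led by Cldn5, Gpihbp1 and Cdh5, which include capillary genes, had 9.91, 5.37 and 7.84 CPM. In macrophage/monocyte-like cells Zfp423 was at most 0.109 CPM.

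**Figure D1:**
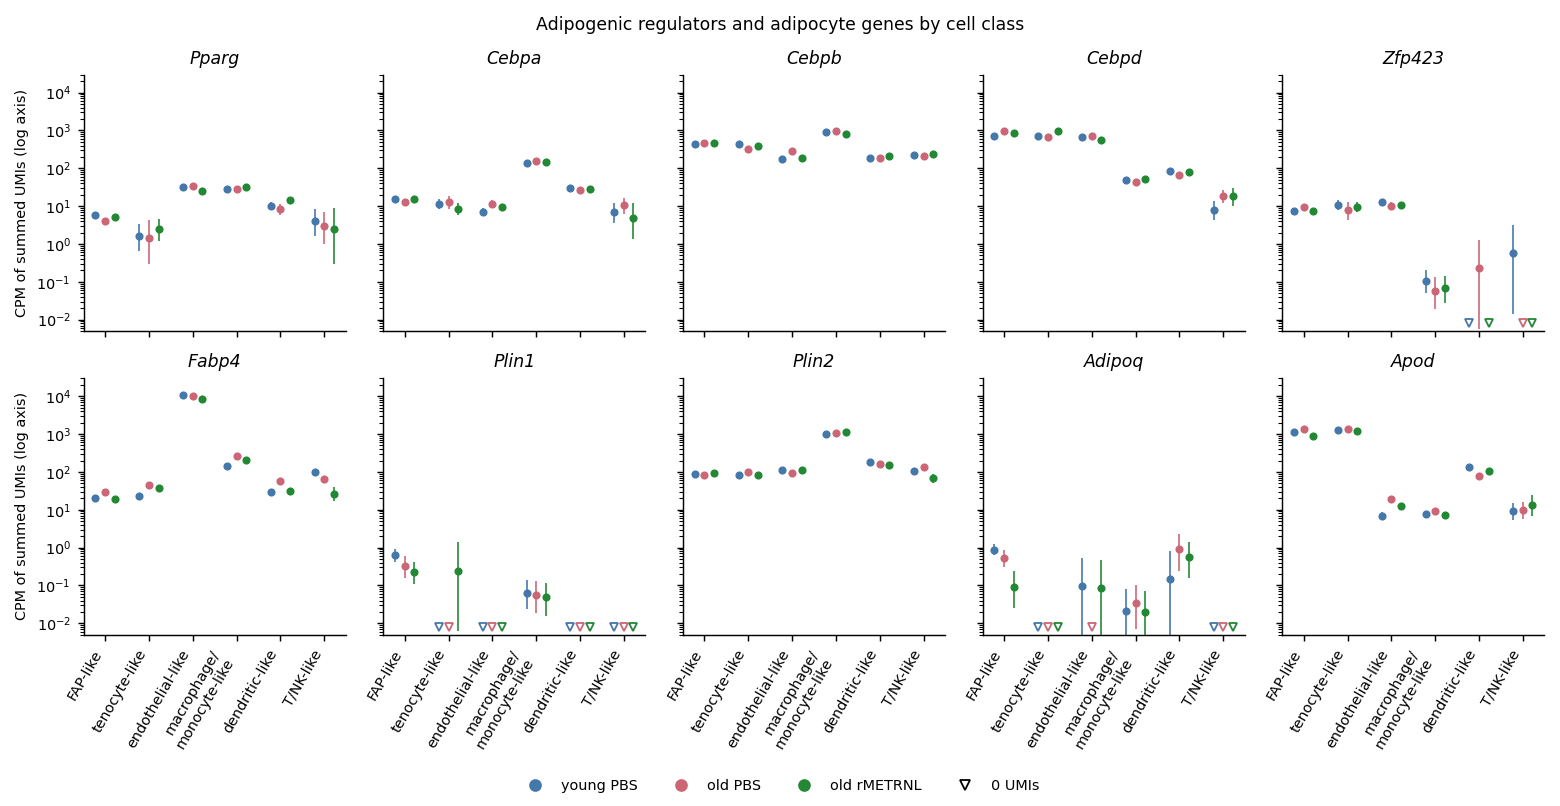
CPM of the 10 genes (log axis) in 6 cell classes, 1 point per library with its exact 95% Poisson interval; open triangles mark libraries with 0 UMIs. Fabp4 is highest in endothelial-like cells and Cebpa and Plin2 in macrophage/monocyte-like cells, while Cebpd, Zfp423 and Apod have high levels in FAP-like and tenocyte-like cells, and Plin1 and Adipoq stay below 1 CPM throughout.

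Promoters are shown for 4 of the genes because the C/EBP factors among the regulators bind DNA of a known form, TTGCNNAA, where N is any base. The RefSeq table for GRCm38.p6 had a start site for 8 of the 10 genes, with 11 promoters in all (Cebpd and Fabp4 had no entry), and the 250 bases before each start were searched on both strands. The form occurred in 3 of the 11 promoters, and in 9.56% of the 32851 promoters of the table. It occurred at least 2 times in 2 of the 11, those of the third Pparg start and of Plin1, against 0.721% of the table. The third Pparg promoter (chr6:115421816-115422065, plus strand) held it 215 and 16 bases before the start, the Plin1 promoter (chr7:79732777-79733026, minus strand) 187 and 58 bases before it, and the second Zfp423 promoter (chr8:87959596-87959845, minus strand) 131 bases before it. The Adipoq promoter (chr16:23146286-23146535, plus strand) is printed as the promoter of an adipocyte gene without these letters. Capitals mark each match, and a match is a description of letters, not of a bound site.
Pparg, the third start: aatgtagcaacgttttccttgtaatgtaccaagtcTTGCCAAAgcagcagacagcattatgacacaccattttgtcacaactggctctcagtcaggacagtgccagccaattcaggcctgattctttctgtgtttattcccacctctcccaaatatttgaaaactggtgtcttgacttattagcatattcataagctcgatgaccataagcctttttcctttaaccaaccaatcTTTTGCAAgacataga
Plin1: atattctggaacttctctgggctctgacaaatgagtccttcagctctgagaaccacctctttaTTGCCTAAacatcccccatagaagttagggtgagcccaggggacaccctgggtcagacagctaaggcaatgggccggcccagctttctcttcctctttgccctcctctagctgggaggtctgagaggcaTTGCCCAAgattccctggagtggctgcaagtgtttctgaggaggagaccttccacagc
Zfp423, the second start: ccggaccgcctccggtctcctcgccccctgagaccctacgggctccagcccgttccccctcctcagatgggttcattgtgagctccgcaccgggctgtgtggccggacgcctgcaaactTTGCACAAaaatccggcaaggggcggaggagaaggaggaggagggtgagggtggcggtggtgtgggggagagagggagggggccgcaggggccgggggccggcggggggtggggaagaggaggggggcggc
Adipoq: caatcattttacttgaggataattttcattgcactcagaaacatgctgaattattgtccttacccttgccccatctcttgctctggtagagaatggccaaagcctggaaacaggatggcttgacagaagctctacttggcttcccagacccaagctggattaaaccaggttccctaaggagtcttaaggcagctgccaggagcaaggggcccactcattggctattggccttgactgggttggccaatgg

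Of the lipid-handling genes, Fabp4 and Plin2 had their main class outside FAP-like cells. The few Plin1 UMIs lay mostly in FAP-like cells (73.7%, 66.7% and 58.8%). Fabp4, a carrier of fatty acids in adipocytes, capillaries and macrophages, was at 11036, 10076 and 8541 CPM in endothelial-like cells. It was at 145.2, 261.5 and 203.0 CPM in macrophage/monocyte-like cells and at 20.8, 30.2 and 19.0 CPM in FAP-like cells, the lowest class by its mean, although its range overlapped that of myocyte-like cells. Endothelial-like cells held 85.9%, 68.6% and 78.1% of all Fabp4 UMIs. After each cell was thinned to 2000 UMIs, Fabp4 was found in 3.12%, 4.59% and 3.14% of FAP-like cells, and in 11.2%, 16.1% and 7.08% of T/NK-like cells, which should lack it. Without thinning these shares were 27.7%, 36.1% and 26.2%, and 19.4%, 33.2% and 15.6%, at median depths of 25964.5, 21786 and 24708.5 UMIs in FAP-like cells and 5820, 6047 and 5050.5 in T/NK-like cells. The thinned share of FAP-like cells with a Fabp4 UMI therefore lay at or below the background.

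Plin2, the coat protein of small lipid droplets, was at 1024, 1076 and 1113 CPM in macrophage/monocyte-like cells, and these held 82.3% to 84.5% of its UMIs. FAP-like cells had 86.1, 80.5 and 92.2 CPM, a range overlapping those of myocyte-like and tenocyte-like cells. Plin1, the coat of the large droplet of adipocytes, had 28, 10 and 10 UMIs in FAP-like cells, which is 0.624, 0.332 and 0.233 CPM, and 0 UMIs in endothelial-like, dendritic-like and T/NK-like cells. Adipoq, which encodes adiponectin, had 40, 16 and 4 UMIs in FAP-like cells, or 0.891 (0.636 to 1.21), 0.531 (0.304 to 0.863) and 0.0930 CPM (0.0253 to 0.238). The range in dendritic-like cells overlapped it, from 1, 4 and 4 UMIs. No cluster of the kept cells had the marker pattern of adipocytes. Of the 10 other adipocyte markers, 7 had UMIs in FAP-like cells, and Cidec, Retn and Lep were at 0. Cidec and Lep were also at 0 in macrophage/monocyte-like and endothelial-like cells.

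Apod, a lipid-binding apolipoprotein of connective tissue and glia, was at 1111, 1336 and 908 CPM in FAP-like cells and at 1245, 1378 and 1208 CPM in tenocyte-like cells. Dendritic-like cells followed at 77.2 to 131.3 CPM. FAP-like cells held 84.1%, 86.0% and 79.5% of its UMIs. The few Schwann/glial-like cells had the highest level, 2410, 2331 and 4041 CPM. After thinning, Apod was found in 61.6%, 69.7% and 58.4% of FAP-like cells and in 0.971%, 2.15% and 3.54% of T/NK-like cells.

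Old PBS was first set against young PBS, to see how aged muscle differs at the same day after injury. In FAP-like cells the old library had less Pparg and Cebpa and more Cebpd, Fabp4, Zfp423 and Apod. Pparg was 0.691-fold (0.552 to 0.861) and Cebpa 0.806-fold (0.710 to 0.914), whereas Cebpd was 1.36-fold (1.34 to 1.38). Zfp423 was 1.28-fold (1.09 to 1.51) and Apod 1.20-fold (1.19 to 1.22). Fabp4 was 1.45-fold (1.32 to 1.59), and the summed level of 10 endothelial markers in FAP-like cells stood at 20.1, 30.6 and 20.3 CPM, so that both were highest in old PBS. Myocyte markers summed to 25.9, 103.4 and 39.8 CPM in these cells and pericyte markers to 424, 230.2 and 293 CPM. Adipocyte markers beside the 10 genes summed to 7.86, 4.25 and 2.60 CPM, highest in young PBS as Pparg and Adipoq were. Macrophage markers summed to 311, 268 and 356 CPM, lowest in old PBS as were Pparg and Cebpa, most of whose UMIs lay in macrophage/monocyte-like cells. The part of these in the ratios was not tested. Cebpb at 1.06-fold and Plin2 at 0.935-fold differed least.

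A gene was counted as differing when it was past 1.5-fold in either direction and had at least 50 UMIs in the class over the 3 libraries. By this rule 1 of the 9 genes that passed the minimum in FAP-like cells differed with age, Adipoq at 0.596-fold, with an interval of 0.312 to 1.09 that includes 1. This ratio was 1.18-fold with doublet calls kept and 1.13-fold in cells gated on Pdgfra, and no gene was past 1.5-fold with a looser cell filter. With doublet calls kept, the 7 doublet-called barcodes of young PBS that held Adipoq and Plin1 stayed outside the FAP-like class. A barcode of old PBS with 16 Adipoq UMIs entered it. Among all barcodes, Adipoq had 313 UMIs in young PBS and 79 in old PBS. Over all 14221 genes of the class that passed, 14% were past 1.5-fold, so 1 of 9 was not above the background, and 6.64% were past it on the lower side. Plin1, with 48 UMIs, did not pass the minimum.

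Old rMETRNL was then set against old PBS, to see how old muscle differs when given the protein. This ratio shares the old PBS library with the age contrast, so a high or low value there moves both ratios in opposite directions. In FAP-like cells Fabp4 was 0.628-fold (0.571 to 0.692), Apod 0.680-fold (0.670 to 0.689), Zfp423 0.780-fold (0.663 to 0.916) and Cebpd 0.849-fold (0.836 to 0.862). Pparg was 1.301-fold (1.04 to 1.64), Cebpa 1.19-fold (1.04 to 1.35) and Plin2 1.15-fold (1.09 to 1.21). Cebpb did not differ beyond counting error, at 0.998-fold (0.977 to 1.02). Fabp4 and Adipoq, the latter at 0.175-fold (0.0426 to 0.543), were 2 of 9 genes past 1.5-fold, against 10.3% of all genes in either direction and 5.42% on the lower side. Without the 8 FAP-like cells that held Adipoq and Plin1 together, Fabp4 was 0.681-fold (0.617 to 0.752), just inside the limit, and Adipoq fell under the UMI minimum, with a ratio of 2.10-fold. Apod lay just inside the limit. Markers of tenocytes in FAP-like cells summed to 560, 614 and 403 CPM and those of Schwann cells to 20.3, 25.4 and 19.1 CPM, both highest in old PBS as Apod was, and their part was not tested.

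Set directly against young PBS, old rMETRNL had in FAP-like cells 0.899-fold Pparg (0.748 to 1.08), 0.956-fold Cebpa (0.859 to 1.06) and 1.001-fold Zfp423 (0.857 to 1.17), all within counting error. Cebpd was 1.16-fold (1.14 to 1.17), while Apod was 0.818-fold (0.807 to 0.828), below both PBS libraries. Fabp4 was 0.913-fold (0.830 to 1.004). Only Adipoq, at 0.104-fold (0.0271 to 0.289), was past 1.5-fold, 1 of 9 against 8.36% of all genes in either direction and 4.38% on the lower side. Without the 8 cells with both Adipoq and Plin1 it was 0.391-fold (0.0667 to 1.63), from 3 UMIs against 8, under the minimum.

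**Figure D2:**
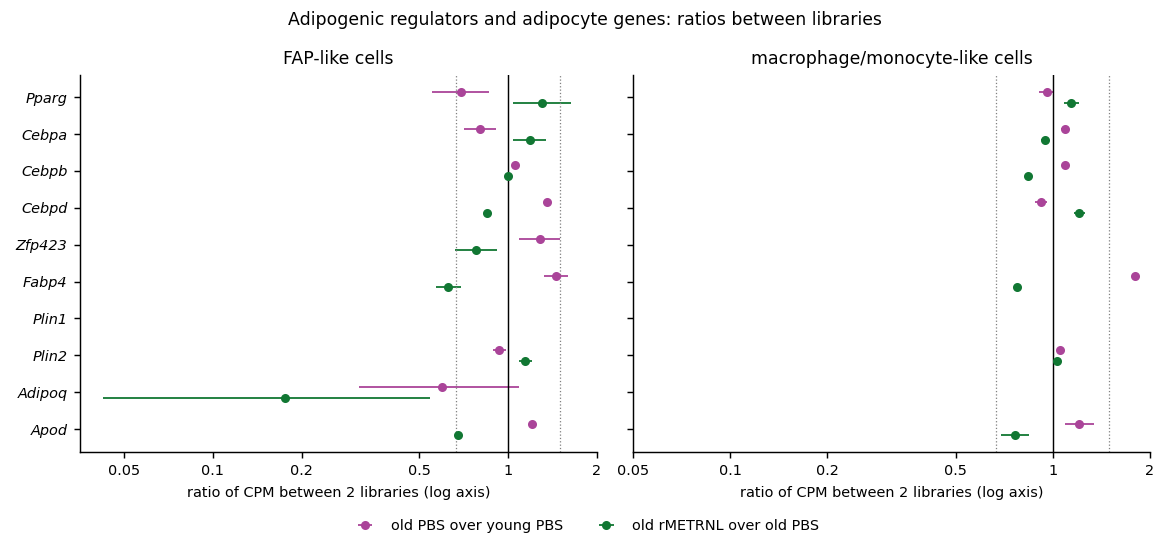
Ratios of CPM between libraries (log axis) in FAP-like cells, left, and macrophage/monocyte-like cells, right, with exact 95% intervals from counting error; dotted lines mark 1.5-fold in each direction, and a gene under 50 UMIs in the class has no point. In FAP-like cells Pparg and Cebpa lie below 1 with age and above 1 with treatment, and Cebpd, Zfp423, Fabp4 and Apod the other way; in macrophages Fabp4 is alone past 1.5-fold with age.

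The FAP-like cells fell into subsets, named by marker genes where those allowed and otherwise by their leading genes, and the 10 genes took no part in the clustering. The shares of the subsets differed between libraries. Inmt/Myoc/C7 cells were 6.43%, 18.3% and 11.6% of FAP-like cells and Cxcl10 cells, with interferon and chemokine genes, 14.6%, 29.0% and 17.6%. Cells led by Sfrp1, Hspb1 and Chl1 were 21.1%, 10.1% and 16.1%, and those led by Swt1, Trmt1l and Ddit4l were 21.97%, 8.84% and 11.01%. With 1 library per group, a subset held mostly by 1 library may be that library and not a kind of cell.

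Apod varied widely between the subsets. It was at 4184, 3651 and 2883 CPM in Inmt/Myoc/C7 cells and at 1857, 1503 and 1709 CPM in Cxcl10 cells, but at 285, 500 and 362 CPM in Pi16/Dpp4 cells and 212, 237 and 255 CPM in Crabp1/Il11/Inhba cells. The cells led by Sfrp1 had 1378, 1476 and 1027 CPM and those led by Swt1 1429, 1448 and 1214 CPM. In Inmt/Myoc/C7 and Cxcl10 cells the age ratio lay below 1, at 0.873-fold (0.847 to 0.899) and 0.809-fold (0.789 to 0.830), although it was above 1 over FAP-like cells as a whole. Both had a larger share of FAP-like cells in old PBS than in young PBS. In the cells led by Sfrp1 it was 1.07-fold (1.04 to 1.11) and in those led by Swt1 1.01-fold (0.974 to 1.05). In Pi16/Dpp4 cells, the progenitors with universal fibroblast markers, Apod was 1.76-fold with age (1.61 to 1.91) and 0.724-fold with treatment (0.675 to 0.777). In cycling cells it was 1.53-fold (1.40 to 1.67) and 0.653-fold (0.600 to 0.711), whereas in the Cxcl10 cells the treatment ratio was 1.14-fold (1.11 to 1.16).

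Among the 7 subsets with at least 50 cells in each library, Cebpd differed most between the PBS libraries in 2. In cycling cells Cebpd was at 331, 642 and 372 CPM, that is, 1.94-fold with age (1.81 to 2.08) and 0.579-fold with treatment (0.543 to 0.617). In the cells led by Swt1, Trmt1l and Ddit4l the order was turned around. There Cebpd was at 453, 215 and 514 CPM (0.474-fold with age, 0.429 to 0.522, and 2.39-fold with treatment, 2.16 to 2.65) and Cebpb at 228.99, 100.97 and 283 CPM (0.441-fold, 0.381 to 0.508, and 2.80-fold, 2.42 to 3.25). These cells had a median of 23621, 17047 and 23932 UMIs, lowest in old PBS. In Crabp1/Il11/Inhba cells, which carry genes of an activated, matrix-forming state, Cebpd was at 436, 697 and 627 CPM and so was higher in both old libraries. Of all genes of the 3 subsets, 15.3%, 17.6% and 12.8% were past 1.5-fold with age.

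Pparg and Cebpa had their higher levels in different subsets. Pparg was at 7.93, 8.87 and 7.54 CPM in Crabp1/Il11/Inhba cells and at 1.75, 1.55 and 4.02 CPM in Inmt/Myoc/C7 cells, the latter from at most 11 UMIs. Cebpa was at 26.9, 21.4 and 29.2 CPM in the cells led by Swt1 and at 2.05, 6.78 and 3.21 CPM in Pi16/Dpp4 cells, from 6 to 20 UMIs. Without the cells with both Adipoq and Plin1, Cebpa was 1.78-fold with age in Crabp1/Il11/Inhba cells (1.24 to 2.56), opposite to FAP-like cells as a whole. In Cxcl10 cells it was 0.703-fold (0.533 to 0.929). In Cxcl10 cells Pparg was at 8.26, 3.03 and 3.05 CPM, 0.367-fold with age (0.224 to 0.593), and 0.573-fold (0.323 to 1.01) without the cells with both Adipoq and Plin1. Zfp423 was at 11.97, 15.6 and 12.6 CPM in Pi16/Dpp4 cells and at 3.84, 4.34 and 3.38 CPM in Crabp1/Il11/Inhba cells. Plin2 was at 85.8, 48.5 and 99.4 CPM in the cells led by Sfrp1, a 2.05-fold treatment ratio (1.73 to 2.44). In the other 6 subsets it ranged from 45.5 CPM in Pi16/Dpp4 cells of young PBS to 113.5 CPM in the cells led by Swt1 of young PBS.

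Fabp4 was highest in old PBS in 4 of the 7 subsets. It was at 14.9, 36.5 and 22.9 CPM in Crabp1/Il11/Inhba cells (in old PBS 18.4 CPM, below old rMETRNL at 20.5 CPM, without the cells with both Adipoq and Plin1), 12.2, 26.9 and 12.04 CPM in Inmt/Myoc/C7 cells, 8.89, 19.3 and 12.6 CPM in Pi16/Dpp4 cells and 18.04, 26.2 and 15.3 CPM in the cells led by Swt1. In Cxcl10 cells it was at 60.2, 39.6 and 26.5 CPM. Adipoq and Plin1, the genes of mature adipocytes, were unevenly spread. Of the Adipoq UMIs of young PBS, 19 were in Cxcl10 cells and 15 in the cells led by Swt1, and of those of old PBS 13 were in Crabp1/Il11/Inhba cells. Plin1 had 14 UMIs in Cxcl10 cells of young PBS and at most 8 in any other subset and library.

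**Figure D3:**
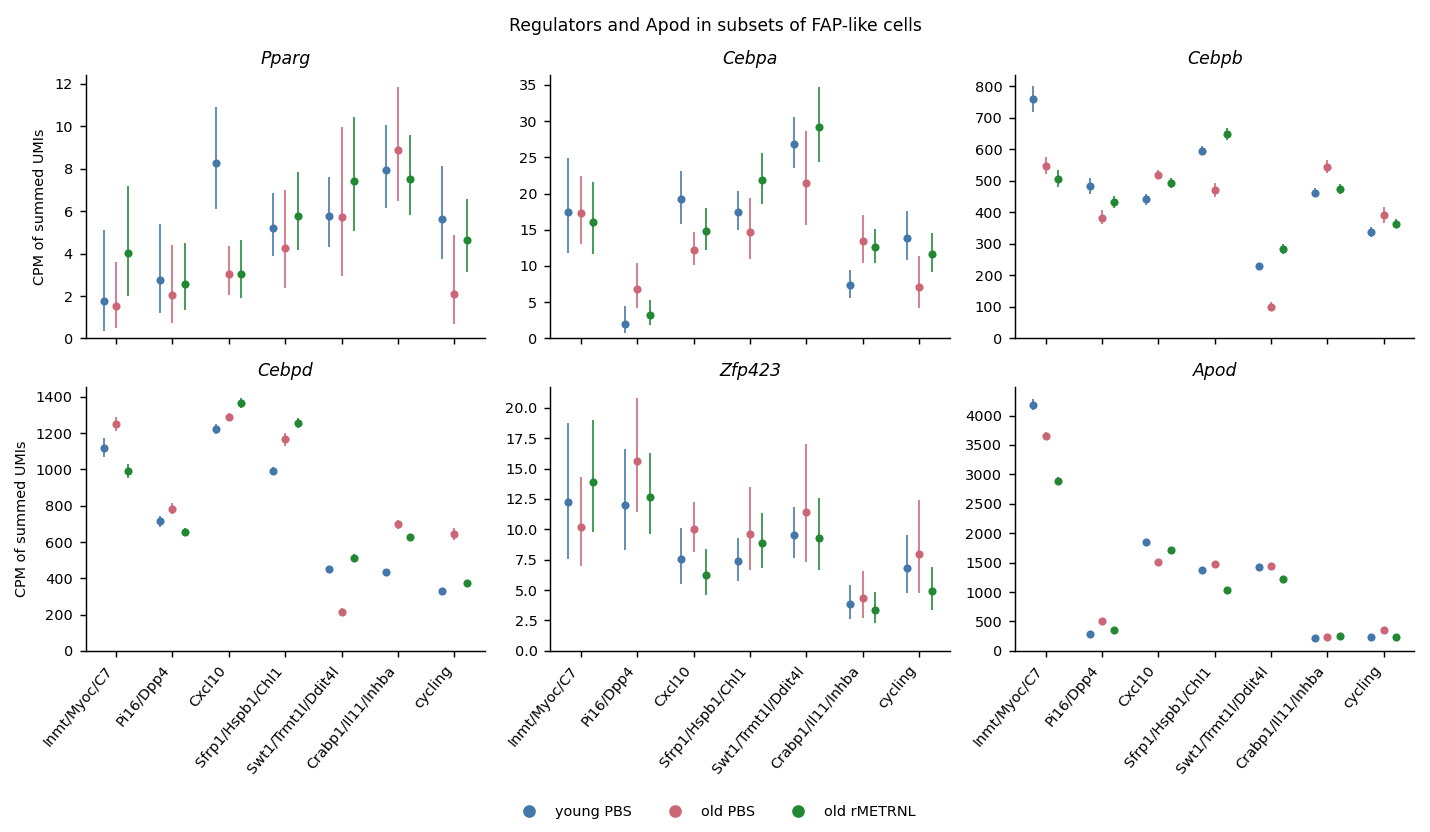
CPM of the 5 regulators and Apod (linear axes from 0) in 7 subsets of FAP-like cells, 1 point per library with its exact 95% Poisson interval. Apod is highest in Inmt/Myoc/C7 cells in all 3 libraries, and in the cells led by Swt1, Trmt1l and Ddit4l old PBS lies below the other libraries for Cebpb and Cebpd.

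UMIs of both Pparg and Cebpa were found in 59 of 1634, 34 of 1346 and 62 of 1644 FAP-like cells. Those with Fabp4 as well were 25, 15 and 27. The part of background RNA in the Fabp4 of FAP-like cells was not tested, so the overlap is given only as a count.

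A few barcodes held Adipoq and Plin1 together. UMIs of both Adipoq and Plin1 were found together in 12 of the 12168 barcodes of young PBS, 4 of the 12568 of old PBS and 2 of the 14012 of old rMETRNL. This is 0.0986% (0.0510 to 0.172, Clopper-Pearson), 0.0318% (0.00867 to 0.0815) and 0.0143% (0.00173 to 0.0516). These 18 barcodes held 298 of the 313 Adipoq UMIs of the young PBS library, 69 of the 79 of old PBS and 21 of the 34 of old rMETRNL. Of Plin1 they held 87.5%, 81.9% and 42.4%.

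These 18 barcodes, of which only 8 were kept as FAP-like cells, were compared with the remaining FAP-like cells for the other genes of the set. Over the 18 together Pparg was at 229.4 CPM, against 4.78 CPM in the other FAP-like cells, and was found in 18 of 18. Cebpa was at 293 against 14.6 CPM, Fabp4 at 7029 against 20.5 CPM and Plin2 at 367 against 86.7 CPM. Of genes that are no part of the 10, Lpl, the lipase that frees fatty acids from lipoproteins, was at 4067 against 369 CPM, and Scd1, a fatty acid desaturase, at 679 against 60.6 CPM. Cebpb was at 528 against 463 CPM and Zfp423 at 10.6 against 8.07 CPM, while Cebpd (466 against 831 CPM) and Apod (480 against 1094 CPM) were lower. The FAP genes Pdgfra (89.0 against 249 CPM) and Col1a1 (1416 against 10619 CPM) were lower.

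Of the 18 barcodes, 10 had been called doublets (7, 2 and 1) and 8 were kept (5, 2 and 1), all 8 as FAP-like cells. With doublet calls kept, the 7 doublet-called barcodes of young PBS were unnamed. Of the 2 of old PBS, 1 was FAP-like and 1 was in a left-out cluster, and the 1 of old rMETRNL was FAP-like. The doublet-called barcodes had 10403 CPM of Fabp4, 196 CPM of Cebpd and 123 CPM of Apod. The kept barcodes had 1020, 949 and 1116 CPM of these genes, and the other FAP-like cells 831 CPM of Cebpd and 1094 CPM of Apod. Of markers of other cells, Ptprc, the pan-leukocyte gene, had 10 UMIs in 3 of the 18 barcodes and Pecam1 of endothelium 3 UMIs. C1qa of macrophages had 40 UMIs in 12 of them, 60.4 CPM against 19.0 CPM in the other FAP-like cells. The barcodes had from 20315 to 82340 UMIs. Whether each was 1 cell was not tested.

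**Figure D4:**
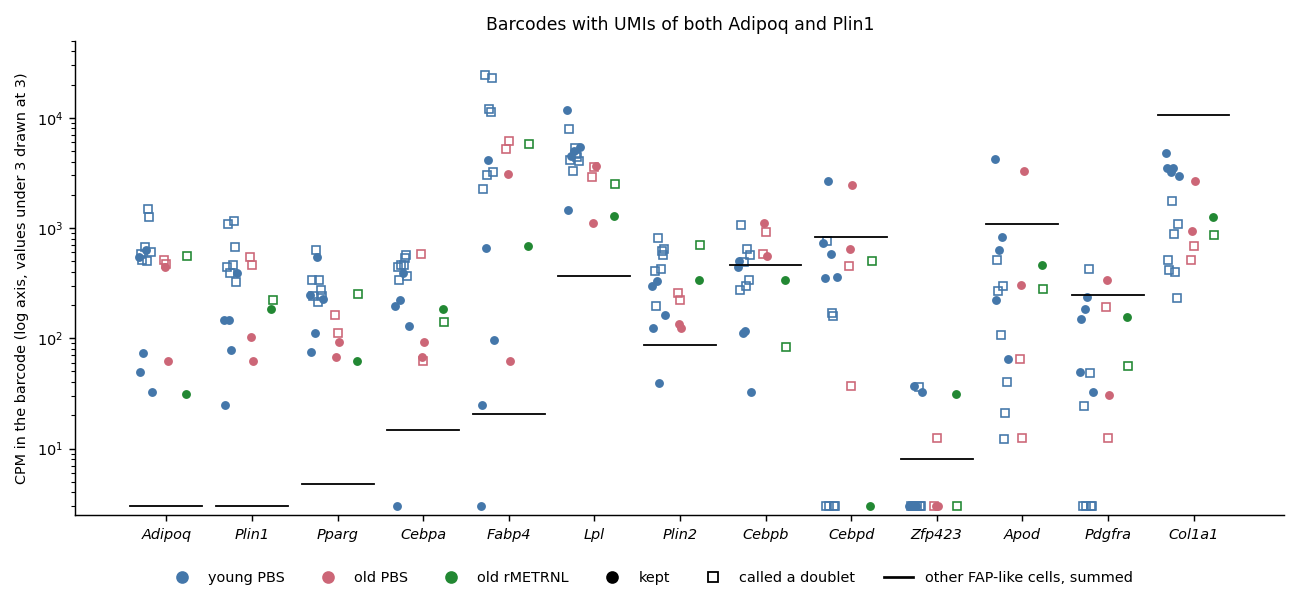
CPM of 13 genes (log axis, values under 3 drawn at 3) in each of the 18 barcodes with UMIs of both Adipoq and Plin1, coloured by library; filled circles are kept cells, open squares doublet calls, and bars the sum of the other FAP-like cells. Pparg, Lpl and, in most barcodes, Cebpa and Fabp4 lie above the bar, and Col1a1 lies below it in every barcode.

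The low values of Adipoq and Plin1 in FAP-like cells rested on these barcodes. Without the 8 kept ones, 8, 1 and 3 Adipoq UMIs and 6, 5 and 4 Plin1 UMIs remained in FAP-like cells, so that both genes were under the UMI minimum. The age ratio of Adipoq was then 0.186-fold (0.00420 to 1.39), and its treatment ratio turned to 2.10-fold (0.168 to 110.1), from 3 UMIs against 1. The age ratio of Pparg moved to 0.754-fold (0.598 to 0.948), that of Cebpa to 0.822-fold (0.724 to 0.933) and that of Fabp4 to 1.51-fold (1.36 to 1.66), which put Fabp4 past 1.5-fold. The treatment ratio of Fabp4 became 0.681-fold (0.617 to 0.752), so that none of the genes over the UMI minimum was past 1.5-fold there. In Cxcl10 cells the age ratio of Fabp4 went from 0.659-fold to 0.934-fold. In Crabp1/Il11/Inhba cells the age ratio of Fabp4 went from 2.45-fold to 1.24-fold (0.939 to 1.64).

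In macrophage/monocyte-like cells, Fabp4 alone of the set was past 1.5-fold with age. It was 1.80-fold in old PBS (1.76 to 1.84), 0.776-fold with treatment (0.762 to 0.791) and 1.40-fold in old rMETRNL over young PBS (1.37 to 1.43). Thus 1 of the 7 genes that passed the UMI minimum was past 1.5-fold, against 13.6% of 14191 genes in either direction and 6.66% on the higher side. The count was near the share over all genes in either direction. None of these 7 was past 1.5-fold with treatment (9.87% of all genes were) or in old rMETRNL over young PBS (6.76%). In these cells endothelial markers summed to 27.7, 27.6 and 28.9 CPM, and T/NK markers (114.2, 194.7 and 143.0 CPM) and myocyte markers (85.6, 190.5 and 108.4 CPM) stood in the same order as Fabp4. Dissociation stress genes summed to 8620, 7320 and 8334 CPM. The part of these in the Fabp4 ratio was not tested.

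Fabp4 was higher in old PBS than in young PBS in each of the 7 macrophage/monocyte-like clusters, with age ratios from 1.22-fold to 2.43-fold. The clusters also held different shares of the kept cells. In cells led by Dnase1l3, Cx3cr1 and Hes1, which were 14.7%, 6.06% and 9.47% of kept cells, it was at 42.7, 103.8 and 50.9 CPM. In cells led by Atp6v0d2, Spp1 and Gpnmb, genes of lipid-loaded macrophages, which were 8.54%, 13.1% and 11.2% of kept cells, it was at 339, 414 and 412 CPM (1.22-fold with age, 1.19 to 1.26), and in cells led by F13a1, Ccl8 and Clec10a at 87.1, 145.3 and 88.6 CPM. Cycling macrophages, led by Top2a, had 157.9, 249.4 and 207.9 CPM. The highest Fabp4 among myeloid clusters was in an unnamed cluster led by Retnla, Mmp12 and F10, with 515, 545 and 573 CPM, where Pparg was at 62.8, 54.4 and 64.2 CPM and Plin2 at 1511, 1426 and 1554 CPM.

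The other genes differed less in macrophages. Cebpb was 1.09-fold with age (1.08 to 1.10) and 0.836-fold with treatment (0.828 to 0.844). Pparg was 0.957-fold (0.905 to 1.01) and 1.14-fold (1.08 to 1.20), Cebpa 1.09-fold (1.06 to 1.12) and 0.945-fold (0.923 to 0.967), and Plin2 1.05-fold (1.04 to 1.06) and 1.03-fold (1.02 to 1.04). Pparg varied more between clusters than between libraries. Monocyte-like cells led by Ly6c2, H2-Eb1 and Il1b had 49.7, 43.9 and 59.5 CPM of it and cycling macrophages 18.3, 19.95 and 20.98 CPM.

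**Figure D5:**
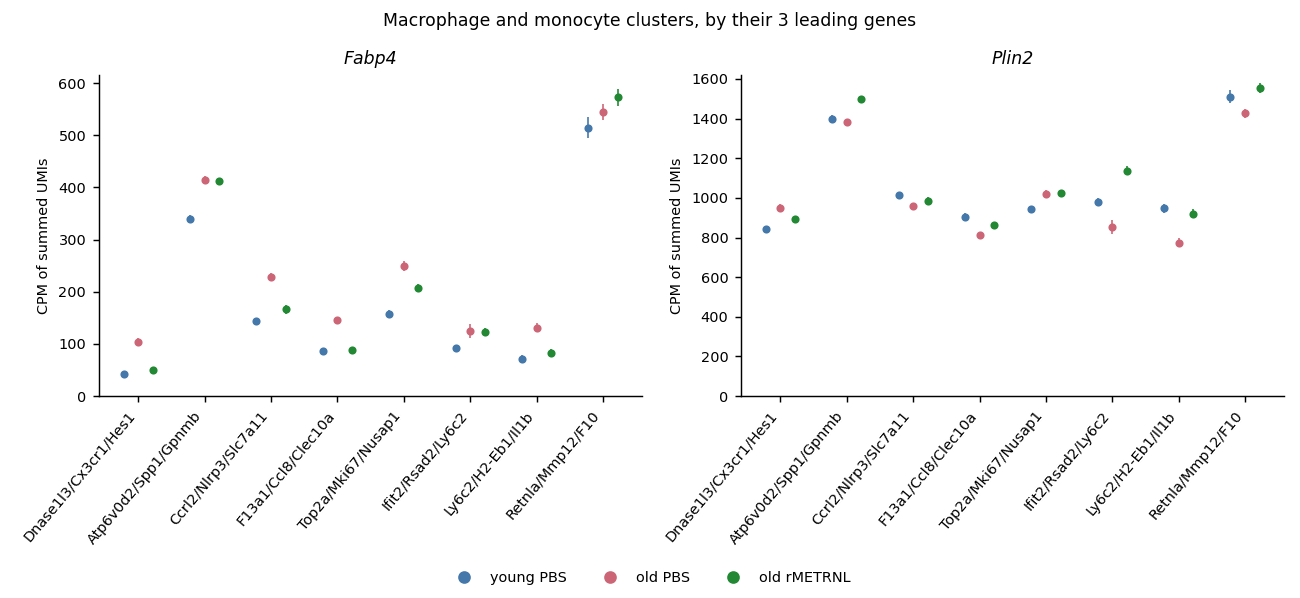
CPM of Fabp4 and Plin2 (linear axes from 0) in the 7 macrophage/monocyte-like clusters and in the unnamed cluster led by Retnla, Mmp12 and F10, at the right, 1 point per library with its exact 95% Poisson interval. Old PBS lies above young PBS for Fabp4 in all 8, while Plin2 has no common order.

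Fabp4 was also higher in old PBS than in young PBS in dendritic-like (2.004-fold, 1.66 to 2.42), tenocyte-like (1.94-fold, 1.44 to 2.61) and myocyte-like cells (2.18-fold, 1.88 to 2.52). In endothelial-like cells, its main class, it was 0.913-fold (0.904 to 0.922), and in T/NK-like cells 0.672-fold (0.522 to 0.861). Over the libraries Fabp4 had a mean of 39.5 CPM in dendritic-like, 35.0 in tenocyte-like and 30.5 in myocyte-like cells. T/NK-like cells, which should lack it, had a mean of 62.9 CPM. The part of background RNA in these ratios was not tested. In myocyte-like cells, 436 of 641 cells of old PBS were in a low-UMI cluster of fibre genes led by Ckm, against 34 of 498 in young PBS. Within that cluster Fabp4 was at 278.7, 148.9 and 92.4 CPM, and within the differentiating cells led by Ttn, Gal and Myog at 19.8, 23.5 and 19.1 CPM, so the ratio over myocyte-like cells was not seen within them.

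In endothelial-like cells 3 of 8 genes were past 1.5-fold with age, all higher, against 19.3% of the 11785 genes of this class in either direction and 9.81% on the higher side. Apod was 2.82-fold (2.09 to 3.84, from 69 and 125 UMIs), Cebpa 1.62-fold (1.16 to 2.28) and Cebpb 1.56-fold (1.47 to 1.67). The median depth of these cells was 11395.5, 3943 and 7329.5 UMIs. Markers of FAPs summed to 244, 364 and 283 CPM, those of myocytes to 32.4, 379 and 75.0 CPM and those of macrophages, the main class of Cebpa and Cebpb, to 556, 951 and 979 CPM in them. Those of pericytes, where Cebpb was high, summed to 870, 1443 and 1051 CPM. Dissociation stress genes summed to 12119, 16018 and 13090 CPM, with 15 of 15 above 0 on the log2 scale with age (median 0.44) and 14 of 15 below it with treatment (median -0.37). The part of depth, stress or RNA from other cells was not tested. With treatment, Cebpb was 0.664-fold (0.624 to 0.707) and Apod 0.658-fold (0.514 to 0.842), 2 of 8 genes against 14.7% in either direction and 7.03% on the lower side. Also with treatment, Pparg was 0.729-fold (0.611 to 0.871), Cebpd 0.747-fold (0.719 to 0.775) and Fabp4 0.848-fold (0.839 to 0.856). In old rMETRNL over young PBS Apod alone was past it, at 1.86-fold (1.39 to 2.51), 1 of 8 against 6.76%.

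The wider adipogenesis list held 87 genes in 6 groups, of which 73 passed the UMI minimum in FAP-like cells. With age 9 were past 1.5-fold higher and 3 lower (7.33% and 6.64% of all genes were), with a median log2 ratio of 0.10 against -0.04 over all genes, and 54 of 73 lay above 0. With treatment 1 was higher and 3 lower (4.84% and 5.42% of all genes), the median was -0.16 against 0.01, and 51 of 73 lay below 0. Old rMETRNL over young PBS had 4 higher and 3 lower (3.98% and 4.38%), with a median of 0.05 against -0.01. Of the 18 activators of adipogenesis, 15 lay above 0 with age and 14 below 0 with treatment, and of the 18 measured inhibitors 11 lay above 0 with age and 12 below 0 with treatment. All 4 measured apolipoproteins beside Apod lay below 0 with treatment. Among 15 genes of the stress of cell dissociation, 1 was lower and 0 higher with age, and 1 was higher and 0 lower with treatment. Of these 15, 9 lay above 0 with age and 10 below 0 with treatment. The share of all genes on each side of 0 is not given, and only their medians can be set beside these counts.

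Among the list's genes with higher levels in old PBS, Gpihbp1, which anchors lipoprotein lipase on capillaries, was 4.10-fold (2.27 to 7.78), from 16 and 44 UMIs, and 3.001-fold in old rMETRNL over young PBS (1.67 to 5.68). Cd36, a fatty acid receptor, was at 3.54, 7.57 and 4.81 CPM, 2.14-fold with age (1.74 to 2.63) and 0.636-fold with treatment (0.524 to 0.771). Scd1 was at 48.2, 89.1 and 57.6 CPM, 1.85-fold with age (1.75 to 1.96) and 0.647-fold with treatment (0.612 to 0.683). Gpihbp1, Cd36 and Fabp4 are also genes of capillary endothelium. Endothelial markers in FAP-like cells are given above, and the endothelial cluster led by Cldn5, Gpihbp1 and Cdh5 was 4.78%, 8.003% and 7.08% of kept cells. The part of endothelial RNA in these ratios was not tested.

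Mgll, which splits monoglycerides, was 2.03-fold with age (1.67 to 2.46) and 1.75-fold in old rMETRNL over young PBS (1.45 to 2.11). Wnt10b, a signal that inhibits adipogenesis, was 1.83-fold (1.23 to 2.72) and 2.17-fold (1.53 to 3.12) in the same contrasts, so that both genes were higher in both old libraries. Apoa1 was 2.46-fold with age (1.298 to 4.78) and 1.84-fold (0.984 to 3.56), from 17 to 30 UMIs. Lower with age were Apoc1 at 0.584-fold (0.447 to 0.756), the brown fat regulator Prdm16 at 0.593-fold (0.389 to 0.887) and the retinol carrier Rbp4 at 0.631-fold (0.559 to 0.711).

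With treatment, Klf15, an activator of Pparg that glucocorticoids induce, was 0.333-fold (0.140 to 0.740), from 21 and 10 UMIs, and Gata2, an inhibitor, 1.56-fold with an interval of 0.787 to 3.27 that includes 1. In old rMETRNL over young PBS, Zfp467, an activator, was 0.647-fold (0.530 to 0.788), Apoc1 0.552-fold (0.435 to 0.697) and Klf15 0.454-fold (0.193 to 0.991).

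The genes whose levels ran most like those of the regulators over 21 sums, from 7 classes in 3 libraries, are given as a description. The sums of a class share its cells and differ in depth, and 13197 genes were compared. Pparg ran most like Batf2 (Pearson r = 0.941), Ednrb (0.941) and Ilrun (0.939), and Cebpa like Snx29 (0.981), Snx8 (0.974) and Pilrb2 (0.969). Cebpb ran most like Reps2 (0.949), Scamp5 (0.930) and Ang (0.930), and Cebpd like Il6st (0.977), Arl13b (0.972) and Tram2 (0.968). Zfp423 ran most like Igfbp7 (0.992), Hoxd8 (0.990) and Meox1 (0.986). Fabp4 ran most like Bmx (0.974), Hoxb3 (0.972) and Tal1 (0.971), Plin2 like C5ar1 (0.975), Atp13a2 (0.974) and Gm13710 (0.972), and Apod like Adam23 (0.978), Cldn10 (0.972) and Gria3 (0.959). Adipoq and Plin1 had too few UMIs for this.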

How the data were processed

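Single cells of damaged tibialis anterior muscle were profiled with 10x Chromium in 3 libraries, 1 per group. The deposited files hold whole-number UMI counts per gene and barcode, which the authors made with Cell Ranger (5.0.0 per the file headers; the submitters' processing notes name 5.0.0 and 3.1.0, and the study's methods another version) on mm10, and the annotation release is not given in the sources used here. The members and lists were chosen with earlier results of these data known.

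A barcode needed 500 genes or more and a mitochondrial share of UMIs under 10%, and was then scored for doublets with Scrublet (scanpy 1.11.5). Its automatic threshold called 0 in every library, so the highest scores were called at 0.8% per 1000 barcodes, which removed 1110, 1112 and 1433. The kept cells numbered 10293, 9946 and 11353, from 12168, 12568 and 14012 barcodes with 218059089, 179295668 and 228966697 UMIs. Counts were scaled to 10000 per cell and logged, 2000 variable genes without the 10 members were taken, and 30 principal components, 20 neighbours and Leiden clustering at resolution 0.8 gave 22 clusters. FAP-like cells were clustered again for subsets. Clusters were named from marker lists. The naming rule was set after the cluster tables were seen. It left out 4.33%, 7.30% and 9.07% of FAP-like and 8.78%, 14.7% and 11.1% of macrophage/monocyte-like cells.

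UMIs were summed per class or subset and library and given as CPM with exact Poisson intervals. Ratios have exact intervals conditional on the sum of both counts, and shares have Clopper-Pearson intervals, all at 95%. With 1 library per group there was no test. A gene was counted past 1.5-fold if it had at least 50 UMIs in the class over the 3 libraries. Shares of cells were compared after thinning to 2000 UMIs. The rule for named genes took in all 10 members in every class with at least 100 cells and every subset with at least 50 cells in each library, of which the text prints those its comparisons turn on. Of the 87 list genes, 86 were in the files. Of these the text names up to 6 highest and 6 lowest by ratio among those past 1.5-fold in FAP-like cells in each contrast, and the 3 genes most like each member by Pearson r of log2(CPM + 1) among genes with at least 500 UMIs. Lpl, Scd1, Pdgfra, Col1a1, Ptprc, C1qa and Pecam1 in the barcodes with Adipoq and Plin1 were chosen after their values were seen. Gene positions are from GENCODE M21 by gene ID (32158 of 32285 matched). Promoters are the 250 bases before each start in the RefSeq table for GRCm38.p6. The ratio and interval steps were tested on simulated data. Other filters, doublet handling, resolutions, UMI minimums and scalings were tried. Python 3.11.15, numpy 2.4.6, scipy 1.17.1 and pandas 2.3.3 were used.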

Additional observations from a re-analysis of the deposited data

Results flagged for a closer look

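Apod was 2.82-fold in old PBS over young PBS in endothelial-like cells and 0.588-fold in dendritic-like cells, opposite directions in the same contrast. In old rMETRNL over young PBS, Apod was 1.86-fold in endothelial-like and 0.378-fold in myocyte-like cells. In the same contrast Fabp4 was 1.61-fold in tenocyte-like and 0.275-fold in T/NK-like cells. The latter rested on 22 against 169 UMIs, in cells that should lack Fabp4. Each of these rests on 1 library per group, and the differences between classes were not tested. The barcodes that were called doublets and also held Plin1 had 340 Adipoq UMIs in the 3 libraries together, a signal outside the cells that the comparisons used. It lay in 10 barcodes, 7 of them of young PBS.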

How the results depend on the processing

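No paired analysis was possible because each group is 1 library, and for the same reason no replicate could be left out and the spread between mice is unknown. Over the alternatives, 420 of the gene ratios stayed within their counting interval, 130 moved outside it, and 5 crossed 1 although their interval had excluded 1. Of the shares of cells with a UMI of a gene, 141 moved outside their interval and 39 stayed within it, under alternatives that each count at another depth or from 2 UMIs up. The ranges over the alternatives were 0.648 to 0.836 for Pparg with age in FAP-like cells, 1.26 to 1.41 for Cebpd with age, 0.622 to 0.811 for Fabp4 and 0.645 to 0.773 for Apod with treatment, and 1.64 to 1.80 for Fabp4 with age in macrophage/monocyte-like cells. These 5 were Plin2 with age in FAP-like cells (1.06 with left-out clusters counted), Adipoq with treatment in FAP-like cells (2.10 without the cells holding both Adipoq and Plin1), and in macrophage/monocyte-like cells Cebpd with age (1.08 as a mean of per-cell CPM), Plin2 with treatment (0.999 centred on the median gene) and Cebpa in old rMETRNL over young PBS (0.969 as a mean of per-cell CPM). Ratios whose own interval included 1 crossed it too. Adipoq with age in FAP-like cells ran from 0.116 to 1.18, reaching 1.18 with doublet calls kept and 1.13 in cells gated on Pdgfra UMIs alone. With doublet calls kept, the doublet-called barcodes of young PBS with both Adipoq and Plin1 stayed outside the class. In FAP-like cells Fabp4 ran from 0.899 to 1.22, Pparg from 0.876 to 1.02 and Zfp423 from 0.931 to 1.06 in old rMETRNL over young PBS, and Cebpb from 0.988 to 1.05 with treatment. In macrophage/monocyte-like cells Pparg ran from 0.899 to 1.01 with age and Apod from 0.830 to 1.02 in old rMETRNL over young PBS.

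The count of the 10 genes past 1.5-fold in FAP-like cells with age, 1, became 0 with the looser filter (200 genes, 20% mitochondrial) or a minimum of 200 UMIs, 2 with a minimum of 20 UMIs, no minimum or shared barcodes left out, and 3 with the mean of per-cell CPM. With treatment, 2 became 0 with the stricter filter (1000 genes, 5%) or without the cells holding both Adipoq and Plin1, and 1 with the looser filter, resolution 0.4, the members used for clustering, a minimum of 200, left-out clusters counted or the Pdgfra gate. In old rMETRNL over young PBS, 1 became 0 with either filter, a minimum of 200, the double-positive cells left out or the Pdgfra gate, and 2 with doublet calls kept, a minimum of 20 or none. In macrophage/monocyte-like cells the counts with age went from 1 to 2 (minimum of 20) and 3 (none), with treatment from 0 to 1 (none), and in old rMETRNL over young PBS from 0 to 1 (20 or none).

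For the adipogenesis list, 4 genes past 1.5-fold with treatment became 1 with doublet calls kept or resolution 1.6, 2 with the members used for clustering or a minimum of 200, 7 with the mean of per-cell CPM and 9 with no minimum, and 7 in old rMETRNL over young PBS became 4 (200) and 11 (none). Over all genes, 1987 with age became 1065 (200) and 7085 (none), 1459 with treatment became 2291 (20), 672 (200) and 6482 (none), and 1189 in old rMETRNL over young PBS became 2003, 483 and 6533. A lower minimum tests more genes of few UMIs by construction, and the cause of the other shifts was not tested. Counting left-out clusters, leaving out the cells with both Adipoq and Plin1, and leaving out shared barcodes were chosen after seeing the data.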
